A study of Mus musculus with 3 samples.

Results

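The miRNAs described here are 8 of the 1881 mouse miRNAs on the array: mmu-miR-18a-5p, mmu-miR-19a-3p, mmu-miR-19b-3p, mmu-miR-25-3p, mmu-miR-32-5p, mmu-miR-92a-3p, mmu-miR-92b-3p and mmu-miR-363-3p. They were chosen by name, as the members of the miR-17-92 cluster and of its paralogous clusters that do not carry the miR-17 seed, with relatives that share a seed with them. All 8 were on the array, with 2 to 4 probes each and 20 probes in all. The study compared 3 ways of taking RNA from serum of male C57BL/6NJcl mice aged 8 weeks, with 1 array for each and 200 µL of serum per extraction. The miRNeasy serum/plasma advanced kit, called miRNeasy advanced here, and the mirVana PARIS kit were applied to serum as their makers describe. For the third RNA, 700 µL of QIAzol, which holds phenol and guanidine, was added to the serum, and the aqueous layer was purified with the exoRNeasy midi kit, which the labels describe as a measure of total serum RNA. Every array received Cy3-labelled product of 1.8 ng of RNA, so that the arrays compare equal masses of RNA and not equal volumes of serum. The labels do not say how many mice gave serum or whether the extractions shared a pool. Extraction and array therefore cannot be told apart, no p-value was computed, and every error below is between replicate spots of a probe, which covers the array step only.

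The miR-17-92 cluster is a group of miRNAs cut from 1 primary transcript, known for promoting cell growth and survival and for its part in B cell development and lymphoma; mouse has paralogous clusters on the X chromosome and within the Mcm7 gene, which encodes a subunit of the replicative helicase. A miRNA pairs with its targets mainly through its seed near the 5′ end, so members of 1 cluster with different seeds repress different messages, and miRNAs of different clusters with the same seed share targets. In serum, miRNAs are carried by Argonaute proteins, lipoproteins and extracellular vesicles, and many of them come from blood cells.

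The mature sequences are shown because the members differ in how much of each they share. Some ratios below differ between miRNAs that are nearly alike in sequence, though this varied with the probe, the processing and the comparison. The sequences are from RefSeq (GRCm38.p6), which matched all 8 members. They are written 5′ to 3′ with the seed, bases 2 to 8, in capitals. The first set carries the miR-19 seed, the second the seed shared by miR-25, miR-32, miR-92 and miR-363, and the last line the miR-18 seed.
mmu-miR-19a-3p: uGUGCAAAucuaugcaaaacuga
mmu-miR-19b-3p: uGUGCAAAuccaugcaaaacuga
mmu-miR-25-3p: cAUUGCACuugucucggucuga
mmu-miR-92a-3p: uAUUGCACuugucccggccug
mmu-miR-92b-3p: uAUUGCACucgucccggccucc
mmu-miR-32-5p: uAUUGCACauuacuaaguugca
mmu-miR-363-3p: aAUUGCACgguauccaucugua
mmu-miR-18a-5p: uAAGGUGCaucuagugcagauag

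mmu-miR-19a-3p and mmu-miR-19b-3p differed by the single change U11C, counted from the 5′ end of the first-named miRNA, outside the seed. mmu-miR-25-3p and mmu-miR-92a-3p differed by C1U, U14C and U18C and were identical at 18 of 21 positions, and mmu-miR-92a-3p and mmu-miR-92b-3p differed by U10C and G21C and were identical at 19 of 21. mmu-miR-32-5p and mmu-miR-363-3p shared the seed of mmu-miR-25-3p but only 13 and 9 of 22 positions with it in all. The probes' own sequences were not analysed here, and how far a probe for one of these miRNAs also binds its near copy was not tested.

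By position, the members fall into 3 clusters and 2 lone loci. mmu-miR-18a-5p (chr14:115043867-115043889, plus strand), mmu-miR-19a-3p (chr14:115044048-115044070), a copy of mmu-miR-19b-3p (chr14:115044358-115044380) and a copy of mmu-miR-92a-3p (chr14:115044476-115044496) lie in the miR-17-92 cluster, all in GRCm38.p6. The other copies of mmu-miR-19b-3p (chrX:52741991-52742013, minus strand) and mmu-miR-92a-3p (chrX:52741854-52741874, minus strand) lie with mmu-miR-363-3p (chrX:52741697-52741718, minus strand) in the miR-106a-363 cluster. mmu-miR-25-3p (chr5:138165332-138165353, minus strand) lies with Mir93 and Mir106b inside the span of Mcm7. mmu-miR-32-5p (chr4:56895272-56895293, minus strand) lies inside the span of Tmem245, and mmu-miR-92b-3p (chr3:89227126-89227147, minus strand) has no other miRNA gene of the annotation within 5 kb. Since mmu-miR-19b-3p and mmu-miR-92a-3p each come from 2 loci with the same mature sequence, the array cannot tell their loci apart.

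Detection required that a share of over 0.5 of a probe's spots, outlier spots aside, lie well above background, and 1 such probe sufficed for a miRNA. Of the 8 members, 4 were detected with exoRNeasy, 4 with miRNeasy advanced and 5 with mirVana PARIS. Over all 1881 miRNAs the detected share was 4.41% with exoRNeasy, 3.77% with miRNeasy advanced and 7.12% with mirVana PARIS. mmu-miR-19a-3p, mmu-miR-19b-3p, mmu-miR-25-3p and mmu-miR-92a-3p were detected on all 3 arrays, mmu-miR-18a-5p on the mirVana PARIS array alone, and mmu-miR-32-5p, mmu-miR-92b-3p and mmu-miR-363-3p on none. Both members with the miR-19 seed were thus detected everywhere, against 2 of 5 with the miR-25 and miR-92 seed. The same-seed miRNAs miR-18b-5p and miR-367-3p were detected on none of the arrays. Nor was any of the 10 opposite arms, the strands of the members' hairpins that are usually degraded.

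All 4 members detected throughout gave their brightest spots on the mirVana PARIS array. The processed signal, a linear intensity after subtraction of the local background, is given here as mean ± SD over the spots of a probe and before any scaling between arrays. mmu-miR-19b-3p, which shares its seed with mmu-miR-19a-3p, had a signal of 186 ± 8.61 with exoRNeasy (14 spots), 89.9 ± 6.29 with miRNeasy advanced and 406 ± 30.6 with mirVana PARIS (15 spots with each of these kits). The order mirVana PARIS, exoRNeasy, miRNeasy advanced held for every spot, with no overlap between arrays. mmu-miR-25-3p, which shares targets with mmu-miR-92a-3p through its seed, had a signal of 130 ± 5.77, 57.4 ± 5.68 and 252 ± 19.5 on the exoRNeasy, miRNeasy advanced and mirVana PARIS arrays. mmu-miR-92a-3p, known for restraining blood vessel growth, had a signal of 142 ± 10.6, 60.7 ± 4.03 and 197 ± 16.2 in the same order. Spots of these miRNAs also separated fully between the 3 arrays. The median over all miRNAs detected on both arrays of a comparison followed the same order before scaling. Its log2 ratio was −0.64 between exoRNeasy and mirVana PARIS, 0.96 between exoRNeasy and miRNeasy advanced, and −1.625 between miRNeasy advanced and mirVana PARIS. The order is therefore not particular to the members, and how many other miRNAs had fully separate spots was not counted.

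mmu-miR-19a-3p kept that order by its means, but its spots overlapped between 2 arrays. Its signal was 24.0 ± 3.47 with exoRNeasy, 17.8 ± 2.84 with miRNeasy advanced and 99.0 ± 7.22 with mirVana PARIS, over 15 spots each. The exoRNeasy spots ran from 19.3 to 31.0 and the miRNeasy advanced spots from 10.5 to 21.3, while the mirVana PARIS spots began at 82.0. On the exoRNeasy array 9 of 15 spots were well above background, against 14 of 15 and 15 of 15 on the other two, and its mean there lay close to the lowest signal of any detected probe on that array, 22.0.

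**Figure D1:**
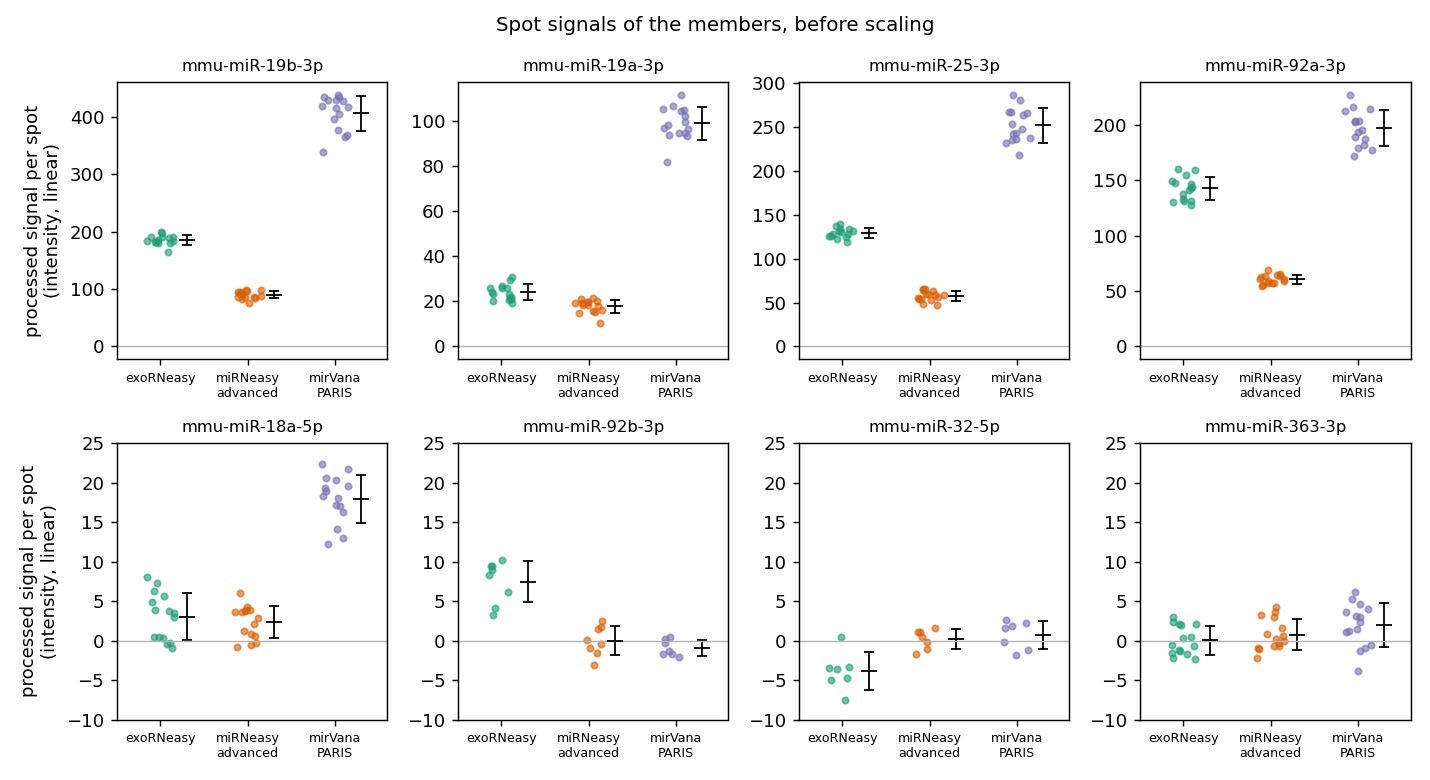
Processed signal of each spot (linear intensity, vertical axes differ between panels of the upper row) on the exoRNeasy, miRNeasy advanced and mirVana PARIS arrays for the chosen probe of each of the 8 members, with the mean and SD over spots as a black bar. The 4 members of the upper row were detected on all arrays, mmu-miR-18a-5p reached 18.0 on the mirVana PARIS array only, and the means of the other three lay between −3.88 and 7.49.

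mmu-miR-18a-5p, the miRNA of the miR-17-92 cluster with the miR-18 seed, was measured on 1 array only. By its brighter probe the signal was 3.06 ± 2.96 with exoRNeasy, 2.34 ± 2.06 with miRNeasy advanced and 18.0 ± 3.01 with mirVana PARIS. On the mirVana PARIS array 15 of 15 spots of this probe were well above background. The dimmer probe had 6.06 ± 1.53 there, with 0 of 12 spots well above background, so detection rested on 1 probe. The mirVana PARIS spots of the brighter probe, from 12.3 to 22.4, lay above all its spots on the other arrays before scaling, which reached 8.01 and 6.01. As the mean of unscaled log2 signals, its level of 4.15 on the mirVana PARIS array was at least 1.45-fold higher than on the miRNeasy advanced array, where the lowest level of a detected probe was 3.60. This bound, 0.54 on the log2 scale, is smaller than the shift of all shared miRNAs between these arrays before scaling. Their median log2 ratio between miRNeasy advanced and mirVana PARIS was −1.625. No bound above 1 could be given against the exoRNeasy array, or after scaling against either array. The lowest level of a detected probe there was higher than the level measured on the mirVana PARIS array.

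The members below detection were not equally dark on the 3 arrays. The 4 probes of mmu-miR-92b-3p had mean signals between 6.80 and 7.57 on the exoRNeasy array and between −2.34 and −0.0074 on the other two. No spot of them was well above background, and the means of the 7 negative-control probes of the exoRNeasy array ran from 1.27 to 7.90, a range that holds all 4 values. mmu-miR-363-3p had mean signals of 0.069 ± 1.84, 0.79 ± 1.97 and 1.96 ± 2.76 on the exoRNeasy, miRNeasy advanced and mirVana PARIS arrays, with overlapping spots. The best probe of mmu-miR-32-5p had −3.88 ± 2.40, 0.19 ± 1.25 and 0.76 ± 1.76 in the same order, also with overlap. These miRNAs were not detectable at this signal, which does not show that the serum lacked them.

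To compare composition, each array was scaled to its 75th percentile, taken over the 106 probes that were detected throughout, and a log2 ratio was taken between scaled levels with the standard error between spots. Because 1 factor per array moves all ratios of a comparison together, each ratio is also given relative to the median over all miRNAs detected on both arrays. A difference was counted when it was at least 2-fold and over 3 spot errors. The 3 comparisons share arrays, and the third is the difference of the other two.

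Between exoRNeasy and mirVana PARIS, mmu-miR-19a-3p was the member that stood apart. Its scaled log2 levels of −2.47 and −1.39 gave a log2 ratio of −1.08 ± 0.060 (SE), a 2.12-fold lower level on the exoRNeasy array, and the ratio was the second lowest of the 80 shared miRNAs. The scaled spots of the 2 arrays did not overlap for mmu-miR-19a-3p. They did not overlap for mmu-miR-92a-3p either, which lay higher on the exoRNeasy array. How many of all shared miRNAs had separate scaled spots was not counted. mmu-miR-19b-3p had a log2 ratio of −0.16 ± 0.034, mmu-miR-25-3p of 0.014 ± 0.034 and mmu-miR-92a-3p of 0.50 ± 0.041. Relative to the median of all, 0.33, these were −1.41 for mmu-miR-19a-3p, −0.49 for mmu-miR-19b-3p, −0.31 for mmu-miR-25-3p and 0.18 for mmu-miR-92a-3p. Of the 4 measured members 1 was counted lower and 0 higher, while 2.5% of the 80 shared miRNAs were counted lower and 25% higher.

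Without scaling all 4 ratios were below 0 in that comparison, at −2.05 for mmu-miR-19a-3p, −1.13 for mmu-miR-19b-3p, −0.96 for mmu-miR-25-3p and −0.47 for mmu-miR-92a-3p, so the sign for mmu-miR-25-3p and mmu-miR-92a-3p depends on the scaling. The size for mmu-miR-19a-3p depended on the background, since the log2 ratio was −0.95 with each array re-zeroed at its median probe, which ends the 2-fold call, −1.34 re-zeroed at the negative controls and −0.15 with normexp and an offset of 50. It stayed below the median of all in each of these settings, of which the re-zeroing was chosen after seeing the data.

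Between exoRNeasy and miRNeasy advanced the members differed less. mmu-miR-19a-3p had a scaled log2 ratio of −0.40 ± 0.086, with overlapping spots, and lay at −0.52 from the median of all, 0.12. mmu-miR-19b-3p stood at 0.21 ± 0.032, mmu-miR-25-3p at 0.34 ± 0.041 and mmu-miR-92a-3p at 0.39 ± 0.037, which is 0.090, 0.22 and 0.27 above that median. With the mean of its detected probes mmu-miR-19b-3p lay at −0.13 from it. Without scaling the ratio for mmu-miR-19a-3p was 0.44 and those for the other three between 1.05 and 1.23. No member, 0 of 4, was counted in either direction, against 2.99% of the 67 shared miRNAs higher and 1.49% lower.

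Between miRNeasy advanced and mirVana PARIS all 4 members lay below the median of all shared miRNAs, 0.18. The scaled log2 ratio was −0.69 ± 0.073 for mmu-miR-19a-3p, −0.37 ± 0.040 for mmu-miR-19b-3p, −0.33 ± 0.048 for mmu-miR-25-3p and 0.11 ± 0.039 for mmu-miR-92a-3p. The ratio for mmu-miR-19a-3p turned to 0.22 with normexp and 0.17 without background correction, where its distance from the median of all was −0.15 and −0.20 against −0.87 as processed here. The distance of mmu-miR-92a-3p from that median was only −0.070, and it turned to 0.045 with re-zeroing at the negative controls and to 0.075 with quantile normalisation. Again 0 of 4 were counted, against 14.1% of the 71 shared miRNAs higher and 2.82% lower. Without scaling the 4 ratios lay between −2.49 and −1.69.

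**Figure D2:**
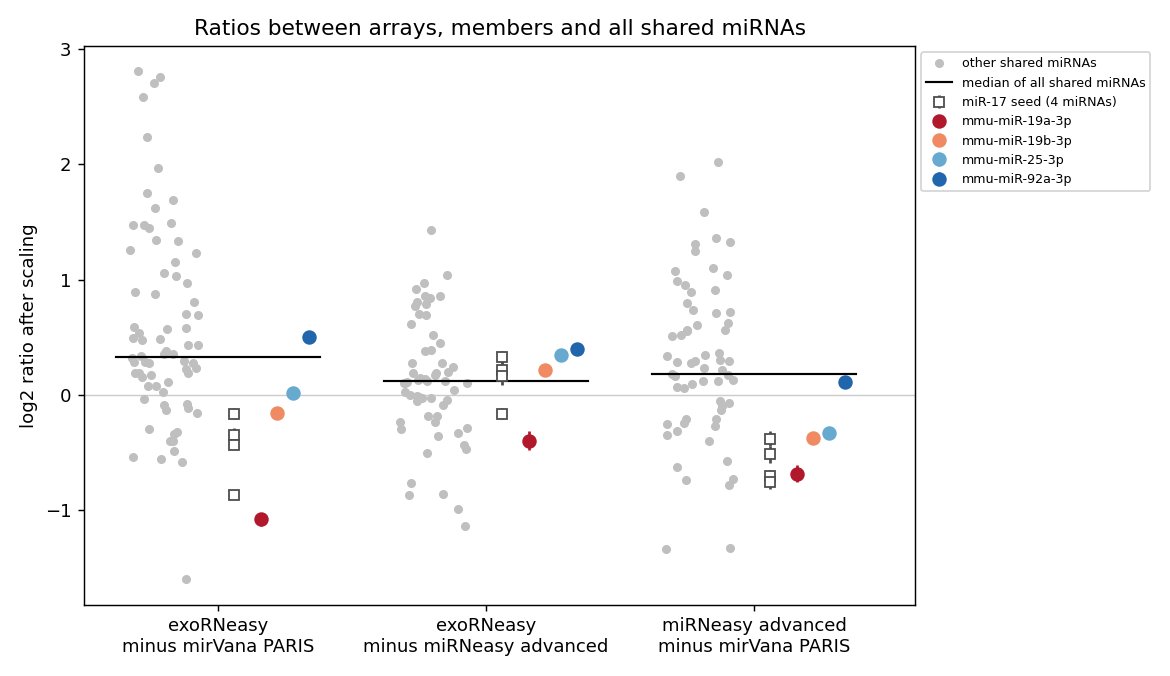
Log2 ratio after scaling (vertical axis) in the 3 comparisons between arrays for the 4 members detected on all arrays (filled colours, with the SE between spots), 4 miRNAs with the miR-17 seed (open squares) and all other miRNAs detected on both arrays (grey), with the median of all as a line. With this processing mmu-miR-19a-3p is the lowest of the 4 members in each comparison and mmu-miR-92a-3p the highest.

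The members did not share a ratio, and the difference between them does not depend on any scaling by 1 factor per array. The mean ratio of mmu-miR-25-3p and mmu-miR-92a-3p exceeded that of mmu-miR-19a-3p and mmu-miR-19b-3p by 0.88 ± 0.043 on the log2 scale, or 1.84-fold, between exoRNeasy and mirVana PARIS. The corresponding difference was 0.46 ± 0.054 (1.38-fold) between exoRNeasy and miRNeasy advanced and 0.42 ± 0.052 (1.34-fold) between miRNeasy advanced and mirVana PARIS. The first of these fell to 0.39 with normexp and 0.41 without background correction, and the third to 0.091 and 0.11. The seed did not sort the members fully. Between exoRNeasy and mirVana PARIS, mmu-miR-19b-3p lay 0.92 ± 0.069 above mmu-miR-19a-3p, which has the same seed, and only 0.17 ± 0.048 below mmu-miR-25-3p. The gap between the miR-19 members was lost in those same settings. Relative to the median of all, mmu-miR-19a-3p and mmu-miR-19b-3p lay at −0.58 and −0.61 with normexp, and at −0.63 and −0.64 without background correction. An offset and an uncorrected background shrink log2 differences by their construction, most for dim probes such as that of mmu-miR-19a-3p. These settings therefore cannot decide how large the gap is. Within the other seed group mmu-miR-92a-3p lay 0.49 ± 0.053 above mmu-miR-25-3p. Between exoRNeasy and miRNeasy advanced the ratios of mmu-miR-25-3p and mmu-miR-92a-3p differed by 0.049 ± 0.056, within the spot error.

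The 2 probes of mmu-miR-19b-3p gave different ratios, and this bears on the contrast between the miR-19 members. Its second probe had signals of 27.1 ± 3.89 with exoRNeasy, 17.8 ± 2.59 with miRNeasy advanced and 98.5 ± 7.64 with mirVana PARIS, and was detected on all of them. The log2 ratio between exoRNeasy and mirVana PARIS was −0.90 ± 0.065 by this probe against −0.16 by the brighter one. By the dimmer probe, then, mmu-miR-19b-3p had a ratio near that of mmu-miR-19a-3p, −1.08. The gap between the probes, 0.74 ± 0.073, was the largest of the 43 miRNAs with several detected probes in this comparison. The median range between probes of a miRNA was 0.14, and 1 of the 43, mmu-miR-19b-3p, had a range of 0.5 or more. Between exoRNeasy and miRNeasy advanced its probes differed by 0.44 ± 0.086 against a median range of 0.068, and between miRNeasy advanced and mirVana PARIS by 0.31 ± 0.074 against 0.12. It was not the widest gap in those comparisons, where the dimmest probe differed from the brightest by 0.59 for miR-15b-5p in the first, and by −0.46 for miR-122-5p and −0.34 for miR-192-5p in the second.

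Dimmer probes had lower ratios in many miRNAs in both comparisons with mirVana PARIS. Between exoRNeasy and mirVana PARIS the dimmest detected probe of a miRNA had the lower ratio in 32 of 43 miRNAs, with a median difference from the brightest of −0.11, and between miRNeasy advanced and mirVana PARIS in 36 of 42, with a median of −0.12. With exoRNeasy against miRNeasy advanced it was 14 of 39, with a median of 0.027. For mmu-miR-92a-3p the dimmer probe, at 35.4, 14.7 and 55.2 on the exoRNeasy, miRNeasy advanced and mirVana PARIS arrays, gave 0.33 ± 0.056 between exoRNeasy and mirVana PARIS against 0.50 by the brighter probe. The second probe of mmu-miR-19a-3p, at 9.27, 7.76 and 57.0, and that of mmu-miR-25-3p, at 14.2, 6.41 and 42.3, passed detection with mirVana PARIS alone and gave no ratio. The part of probe brightness in the ratio of mmu-miR-19a-3p, which has no second measured probe, was not tested.

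**Figure D3:**
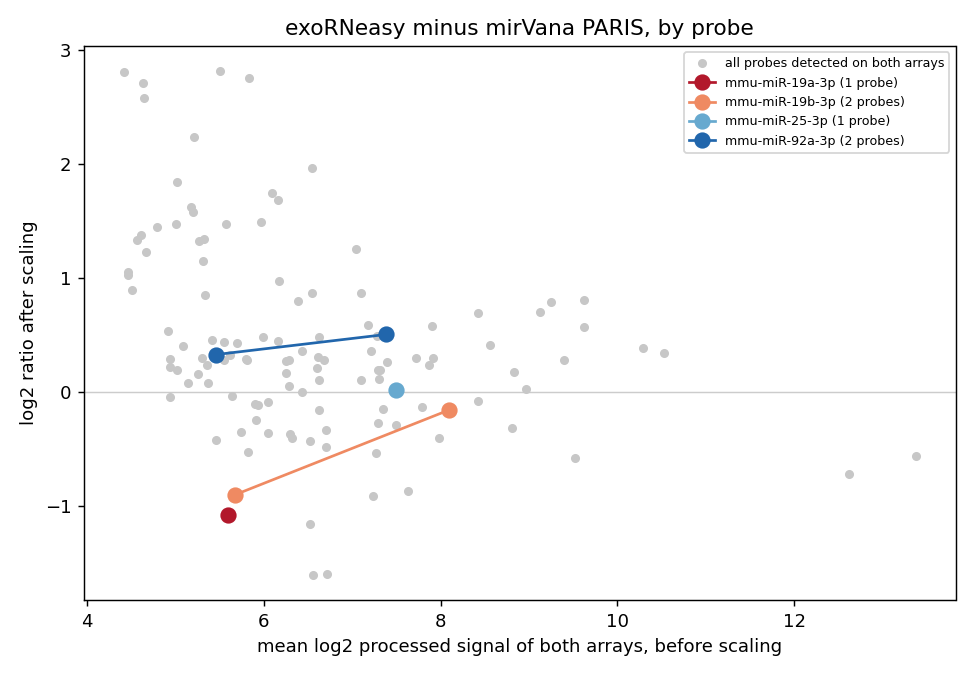
Log2 ratio after scaling between the exoRNeasy and mirVana PARIS arrays (vertical axis) against the mean log2 processed signal of both arrays before scaling (horizontal axis) for every probe detected on both. A line joins the 2 probes of a member, and the dimmer probe of mmu-miR-19b-3p, at −0.90, lies beside the mmu-miR-19a-3p probe, at −1.08.

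Neighbours within a cluster also differed in their ratios. Of the 6 miRNAs of the miR-17-92 cluster named here by their guide arm, 4 were detected on all arrays, and their log2 ratios between exoRNeasy and mirVana PARIS spanned 1.59, from mmu-miR-19a-3p to mmu-miR-92a-3p. The ratios of all 80 shared miRNAs spanned 4.41. mmu-miR-92a-3p and mmu-miR-19b-3p also have copies in the miR-106a-363 cluster, so their ratios cannot be assigned to either cluster. In the miR-106b-25 cluster all 3 miRNAs were detected, and mmu-miR-25-3p at 0.014 stood above its neighbours miR-93-5p at −0.43 ± 0.035 and miR-106b-5p at −0.87 ± 0.036, a span of 0.88. In the miR-106a-363 cluster 3 of the 5 miRNAs with a probe of that name were detected, mmu-miR-19b-3p, mmu-miR-92a-3p and miR-20b-5p at −0.35 ± 0.064, and miR-106a-5p was not analysed here.

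The miR-17-seed miRNAs of these clusters, which repress cell-cycle inhibitors such as p21, lay below most shared miRNAs in both comparisons with mirVana PARIS. Of 5 on the array 4 were detected, miR-20a-5p, miR-20b-5p, miR-93-5p and miR-106b-5p, and miR-17-5p was detected on none of the arrays. Between exoRNeasy and mirVana PARIS all 4 lay below the median of all, with a median log2 ratio of −0.39, and between miRNeasy advanced and mirVana PARIS all 4 did so with a median of −0.61. Of the 4, 1 lay below it between exoRNeasy and miRNeasy advanced, with a median of 0.19. For the 4 measured members the medians were −0.072, −0.35 and 0.28 in the same order of comparisons. Cluster neighbours with the miR-17 seed therefore lay on the same side of the median as mmu-miR-19a-3p, mmu-miR-19b-3p and mmu-miR-25-3p in both comparisons with mirVana PARIS.

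The profile of each member over the 3 arrays was set against the other miRNAs detected on all 3, 67 in all, by the root mean square difference between scaled log2 levels after removal of each miRNA's mean. mmu-miR-19b-3p was nearest to miR-20a-5p of its own cluster, with a difference of 0.0038, then to miR-15b-5p at 0.044 and miR-107-3p at 0.048, where the median over all was 0.31. mmu-miR-25-3p was nearest to miR-107-3p at 0.030, miR-15b-5p at 0.064 and mmu-miR-19b-3p at 0.074, against a median of 0.28. The nearest to mmu-miR-19a-3p were miR-106b-5p at 0.11, miR-144-3p at 0.23 and miR-16-5p at 0.25, against a median of 0.59, where miR-144-3p and miR-16-5p are abundant in red blood cells. mmu-miR-92a-3p was nearest to miR-223-3p, a miRNA of myeloid cells and platelets, at 0.076, then to miR-215-5p at 0.087 and miR-24-3p at 0.096, against a median of 0.31. The neighbours changed with the probe. By its dimmer probe mmu-miR-19b-3p was nearest to miR-106b-5p at 0.024, then to mmu-miR-19a-3p at 0.084 and miR-16-5p at 0.17, and lay 0.30 from miR-20a-5p. By the dimmer probe of mmu-miR-92a-3p the nearest were miR-215-5p at 0.015, miR-30a-5p at 0.11 and miR-24-3p at 0.12. With 3 arrays such likeness is a description of these arrays.

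Red blood cell miRNAs had ratios on the same side of the median as mmu-miR-19a-3p in both comparisons with mirVana PARIS. Of the 4 listed, all were detected on every array, and their log2 ratios between exoRNeasy and mirVana PARIS were −1.60 ± 0.040 for miR-144-3p, −0.58 ± 0.021 for miR-16-5p, −0.56 ± 0.023 for miR-451a, which is processed without Dicer, and −0.34 ± 0.031 for miR-486a-5p. The haemolysis reference miR-23a-3p stood at 0.28 ± 0.024. Between exoRNeasy and miRNeasy advanced only 2 of the 4 lay below the median of all, 0.12, with −0.86 for miR-144-3p and −0.50 for miR-451a, while miR-16-5p at 0.15 and miR-486a-5p at 0.24 lay above it. The summed signal of the red cell list, before scaling, was 6786 with exoRNeasy, 5259 with miRNeasy advanced and 19736 with mirVana PARIS, and that of the 8 members was 488, 229 and 974. Divided by each array's scaling signal, the red cell sum was 51.4, 71.0 and 76.3, and the members' sum 3.70, 3.09 and 3.76. miR-451a alone made up between 91.5% and 94.4% of the red cell sum, and the other 3 miRNAs summed to 4.09, 3.97 and 6.51 after scaling, so that the difference between exoRNeasy and miRNeasy advanced in the whole sum was that of miR-451a. The part of red cell RNA in the members' ratios was not tested.

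The scaled sums of lists for other sources, which include miRNAs below detection, gave other orders of the arrays. Of 4 platelet miRNAs 2 were detected with exoRNeasy, 2 with miRNeasy advanced and 3 with mirVana PARIS. Their scaled sum was 6.27, 5.41 and 4.14, highest on the exoRNeasy array. Between exoRNeasy and miRNeasy advanced the log2 ratio was 0.27 for miR-223-3p but −0.022 for miR-126a-3p. Both of these were lowest on the mirVana PARIS array. Of 4 leukocyte miRNAs 2, 2 and 3 were detected, with a scaled sum of 0.70, 1.13 and 0.82, and miR-155-5p was below detection on every array. The leukocyte miRNAs did not share the order of that sum. In the same order of arrays, scaled log2 levels were −1.41, −0.27 and −1.01 for miR-142a-3p and −2.12, −2.06 and −2.19 for miR-146a-5p. For miR-150-5p, detected with mirVana PARIS alone, they were −3.04, −4.00 and −3.27. Both liver miRNAs were detected throughout, with a scaled sum of 2.50, 1.39 and 1.87.

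Base composition followed the order of the 4 members but not that of all miRNAs. The share of G and C in the mature sequence was 34.8% for mmu-miR-19a-3p, 39.1% for mmu-miR-19b-3p, 50% for mmu-miR-25-3p and 57.1% for mmu-miR-92a-3p, the same order as their ratios between exoRNeasy and mirVana PARIS. Across the 71 shared miRNAs with a sequence in RefSeq, Pearson's r between this share and that ratio was 0.068 and Spearman's rho 0.13, and without the members r was 0.032. For exoRNeasy against miRNeasy advanced r was −0.14 and rho 0.067 over 59 miRNAs, of opposite sign, and between miRNeasy advanced and mirVana PARIS they were 0.25 and 0.13 over 61. These coefficients are across miRNAs on the same pairs of arrays, which are not independent replicates. The members not detected spanned 31.8% for mmu-miR-32-5p to 63.6% for mmu-miR-92b-3p.

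**Figure D4:**
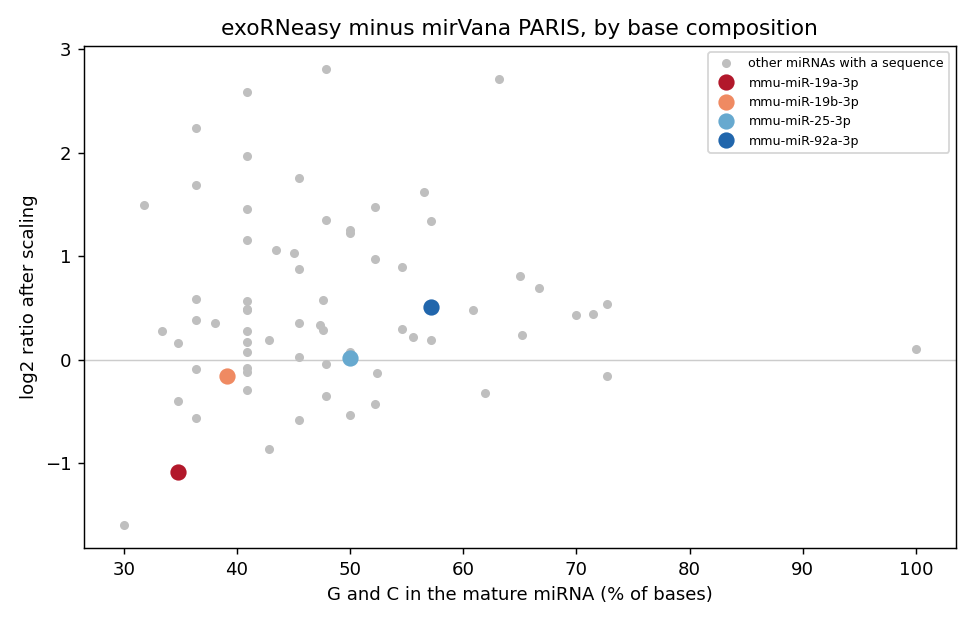
Log2 ratio after scaling between the exoRNeasy and mirVana PARIS arrays (vertical axis) against the percentage of G and C in the mature miRNA (horizontal axis) for 71 shared miRNAs, with the 4 members in colour and the SE between spots. The members run from −1.08 at 34.8% to 0.50 at 57.1%, while the other miRNAs show a wide spread of ratios at each composition.

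The separation of mmu-miR-19a-3p from mmu-miR-92a-3p kept its sign in every setting that measured both between exoRNeasy and mirVana PARIS, and its size did not. Relative to the median of all shared miRNAs between exoRNeasy and mirVana PARIS, mmu-miR-19a-3p ranged from −1.67 to −0.58 and mmu-miR-92a-3p from −0.031 to 0.42. mmu-miR-19b-3p ranged from −0.86, with the mean of its detected probes, to −0.20, with quantile normalisation. mmu-miR-25-3p ranged from −0.42 to −0.027.

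**Figure D5:**
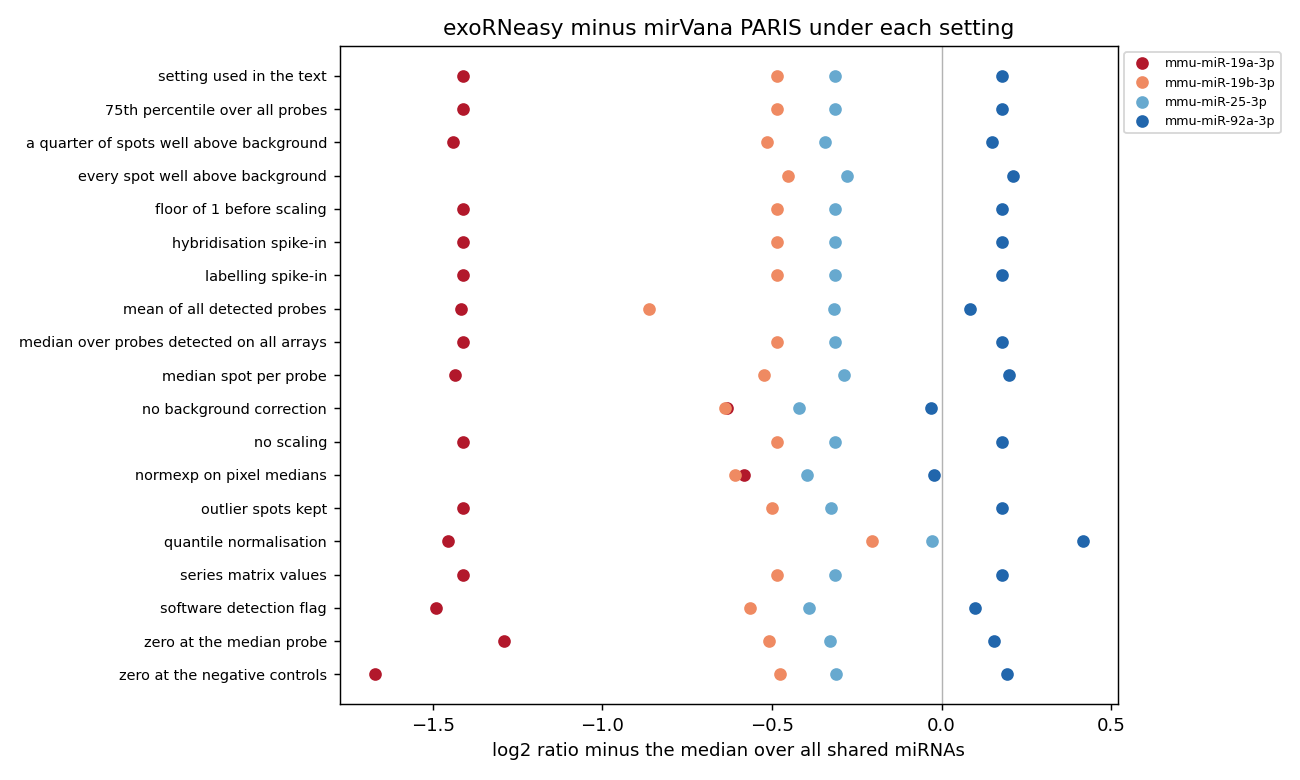
Log2 ratio between the exoRNeasy and mirVana PARIS arrays minus the median over all shared miRNAs (horizontal axis) for the 4 members under each processing setting (rows). mmu-miR-19a-3p is absent where every spot had to be well above background, and its distance from the median is smallest, −0.58 and −0.63, under normexp and without background correction.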

How the data were processed

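The arrays were 1-colour Agilent mouse miRNA arrays, 1 per kit, on the same slide and in the same scan, per the file headers. The deposited values are spot intensity on a linear scale, with local background and a spatial trend subtracted, per the file headers, which record no step that equalises the arrays. The authors used Agilent Feature Extraction 11.5, per the submitters' processing notes, and 11.5.1.1, per the file headers. The series' value table holds these deposited intensities again, matched by spot number, linear and not centred, with column medians of −2.77 (exoRNeasy), −1.51 (miRNeasy advanced) and −1.44 (mirVana PARIS).

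Spots flagged as outliers were left out. Signals were divided by the array's 75th percentile, taken over the 106 probes that were detected throughout (132, 74.1 and 259 in the same order), floored at 0.01, and their log2 values were averaged per probe. Each miRNA was read from the probe that passed detection on the largest number of arrays, and among equals from the brightest. A bound set the bright array's level against the higher of the dim array's lowest detected level and the probe's own. Depth is limited by signal over background: the lowest detected signals were 22.0, 12.4 and 9.56. The steps from spot signals to log2 ratios were run on simulated arrays with known ratios. That run had no background noise and did not include the rule for counting differences.

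The members and lists were chosen with earlier results of these data known. The miRNAs named were the 8 members, their cluster neighbours with the miR-17 seed, same-seed miRNAs, opposite arms, blood cell and liver markers, and the 3 miRNAs with the profile nearest to each member detected on all arrays. Alternatives covered scaling, background, probe choice, outlier spots, the floor, detection and the value table. Work was done in Python 3.11.15 with numpy 2.4.6 and pandas 2.3.3, and normexp in limma 3.58.1. Array annotation names an older build than the RefSeq sequences, so coordinates are those of GRCm38.p6 only.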

Additional observations from a re-analysis of the deposited data

How the results depend on the processing

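There were 16 planned settings and 2 added after seeing the data, which re-zero each array at its median probe or at its negative controls. The 1 counted difference, that of mmu-miR-19a-3p between exoRNeasy and mirVana PARIS, stayed below 0 in all 17 that measured it. Ratios not counted did change sign: in that comparison mmu-miR-25-3p was below 0 in 6 of 18 settings and mmu-miR-92a-3p in 4. The members counted lower between exoRNeasy and mirVana PARIS were 1 as reported. They were 3 with scaling to the 75th percentile over all probes, 3 with the hybridisation spike-in and 2 without scaling, where 45, 43 and 22 of 80 shared miRNAs were counted lower. They were 0 with normexp, 0 without background correction, 0 re-zeroed at the median probe and 0 where every spot had to be well above background, a setting that drops mmu-miR-19a-3p and leaves 3, 3 and 5 members detected on the exoRNeasy, miRNeasy advanced and mirVana PARIS arrays. Between miRNeasy advanced and mirVana PARIS 0 were counted lower as reported. They were 4 with the 75th percentile over all probes, 4 with the hybridisation spike-in, 4 with the labelling spike-in and 4 without scaling, where 53 to 57 of 71 shared miRNAs were, and 1 re-zeroed at the negative controls. Between exoRNeasy and miRNeasy advanced 3 were counted higher with the labelling spike-in and 3 without scaling, where 39 and 29 of 67 were, against 0 as reported. The difference between the miR-25 and miR-92a pair and the miR-19 pair fell to 0.39 with normexp and 0.41 without background correction between exoRNeasy and mirVana PARIS, and to 0.091 and 0.11 between miRNeasy advanced and mirVana PARIS. It stayed above 0 in each setting that gave it, from 0.39 to 1.02, 0.29 to 0.62 and 0.091 to 0.56 in the order of the report. An uncorrected background and an offset shrink log2 differences by their construction. No paired analysis was possible because each kit has 1 array, and for the same reason no array could be left out. Signal over background limits mmu-miR-18a-5p, mmu-miR-32-5p, mmu-miR-92b-3p and mmu-miR-363-3p, which give no ratio.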
